A study of Caenorhabditis elegans with 2 samples.

Results

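The KLF and SP genes klf-1, klf-2, klf-3, sptf-1, sptf-2 and sptf-3 of Caenorhabditis elegans were examined for occupancy by the protein that one of them encodes, KLF-2. All 6 are annotated among 19973 protein-coding genes, and each was given a window from 3000 bp upstream of its annotated start to its 3′ end. A peak belonged to a gene when its summit, the position of highest signal, lay in the window. The 6 windows cover 46.4 kb in all and held 57 of the 111583 peaks in the authors' ranked list of both replicates. None of the 57 was in the authors' conservative thresholded list of 1032 peaks.

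The data were ChIP-seq peak lists, in which sites bound by a protein are recovered with an antibody and sequenced. The 2 biological replicates form a single group, and there was no other condition. Per the labels, all embryos came from 1 strain, RW12310, in which a CRISPR insertion tags KLF-2 with TY1, EGFP and 3xFLAG (allele st12310). They were collected by egg bleaching at the midembryonic stage, with an age of 1.5 hours, and the precipitation used an antibody against GFP per the description, while the antibody field names klf-2. The samples were whole organisms, so a site occupied in few cells and a site occupied weakly in many cannot be told apart. No expression was measured, so which of the 6 genes were active could not be checked. The strain label puts the allele on chromosome II, while the annotation has klf-2 on chromosome V and klf-3 and sptf-2 on II. The annotated positions were used.

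Krüppel-like factors and SP factors form one family of transcription factors that bind DNA through C2H2 zinc fingers at the end of the protein. They recognise short sequences rich in C, the CACCC box and the GC box, and in mammals members of the family bind the promoters of their own and one another's genes. In the worm, KLF-3 regulates fat storage and fatty acid breakdown, KLF-1 has been tied to lipid handling and lifespan, and SPTF-3, a relative of mammalian Sp1, promotes the transcription of the cell death gene egl-1. Whether KLF-2 occupied its own gene and those of its relatives is the question addressed here.

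The sequences around the summits of the highest peaks at the 3 klf genes are shown first, because the best peaks of klf-2, klf-1 and klf-3 had the highest signal of the family. Each run has 101 bases of the WBcel235 genome, which has the ce11 coordinates of the files, on the plus strand, the coding strand of these genes, with the summit in the middle. Capitals mark CACCC or its complement GGGTG.
klf-2, 62 bp upstream of the start, chrV:20685571-20685671: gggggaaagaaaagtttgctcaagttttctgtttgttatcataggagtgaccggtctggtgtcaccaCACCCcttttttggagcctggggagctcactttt
klf-2, 1102 bp upstream of the start, chrV:20684531-20684631: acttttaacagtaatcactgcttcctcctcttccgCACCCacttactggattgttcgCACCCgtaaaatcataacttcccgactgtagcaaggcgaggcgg
klf-1, 2753 bp upstream of the start, chrIII:2872015-2872115: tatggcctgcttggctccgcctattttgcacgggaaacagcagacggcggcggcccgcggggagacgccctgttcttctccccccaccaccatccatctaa
klf-1, 1240 bp inside the gene, chrIII:2876008-2876108: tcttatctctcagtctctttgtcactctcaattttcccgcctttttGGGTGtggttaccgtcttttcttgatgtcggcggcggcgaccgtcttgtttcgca
klf-3, 4044 bp inside the gene, chrII:6620872-6620972: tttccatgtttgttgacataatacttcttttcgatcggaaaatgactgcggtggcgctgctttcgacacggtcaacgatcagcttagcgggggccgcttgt

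No gene of the family had a called peak. A called peak is one in the conservative list, whose members all have a −log10 global irreproducible discovery rate (IDR) of at least 2, that is an IDR of 0.01 or less. In the list of both replicates the IDR rises where the replicates rank a peak differently, and it can also be high where both rank it low. By this rule 0 of the 6 genes were called, beside 6.25% of all 19973 protein-coding genes with windows set in the same way. With so few genes the exact 95% upper bound on a share of 0 of 6 is 45.9%, so the count does not separate the family from other genes. The other series-level thresholded list, with 1027 peaks, called 0 of the 6 and 6.1% of all genes. A global IDR of 0.01 or less in the ranked list, without the conservative list, called 0 of the 6 and 6.49% of all. The thresholded list of replicate 1 alone (436 peaks) called 0 of the 6 and 2.65% of all, and that of replicate 2 alone (456 peaks) called 0 of the 6 and 2.96%. Other windows gave 0 of the 6 too: 4.35% of all genes were called from 1000 bp upstream, 4.67% with windows ended at other protein-coding genes, and 6.52% when any overlap of peak and window counted. At a global IDR of 0.05 or less, klf-1 alone was called, beside 14.1% of all genes. No gene being called does not show that KLF-2 is absent from these genes: the depth of sequencing is unknown, and a site below the threshold is not detectable here.

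The ranked list behind the calls reaches far below the threshold. It holds at least 1 peak in the window of 85.5% of protein-coding genes, and of 6 of the 6. In the ranked list of replicate 1 the share was 84.1%, with 5 of the 6 (all but sptf-2), and in that of replicate 2 it was 82.3%, with 6 of the 6. The peaks of the list of both replicates at the family have signal values, a score of the authors' peak caller, from 2.48 to 64.2, with a median of 26.6, against 23.8 for the whole list. A rank counts from the highest signal value of a list, and the ranked lists have 63024 peaks in replicate 1 and 50044 in replicate 2. The called peaks had a median of 93.9, and 46 of the 1032 (4.46%) were lower than 64.2. Conversely 2271 ranked peaks exceeded 64.2, and 986 of them were called. The −log10 global IDR was at the lowest value of the list, 0.109, for 20 of the 57 peaks (35.1%), against 42.9% of all ranked peaks. The windows of the family are longer than most, with a median of 8186 bp against 5027 bp, and a longer window can hold more peaks. Per kb of window the 6 genes had 1.23 ranked peaks together, against 1.12 over the windows of all genes together.

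**Figure D1:**
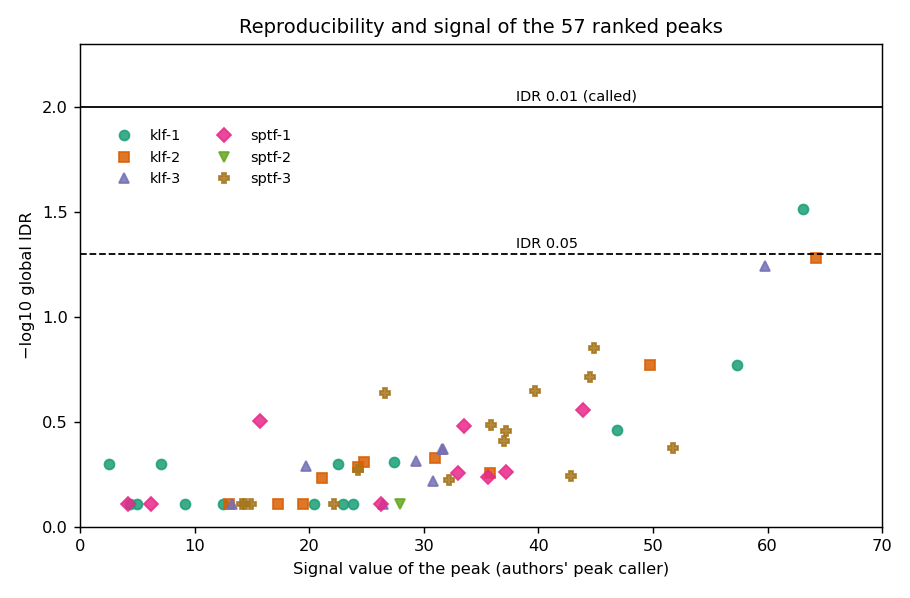
Signal value against −log10 global IDR for the 57 ranked peaks in the windows of the 6 genes, 1 point a peak, with lines at an IDR of 0.01 and 0.05. All 57 lie below the line at 0.01, and 1 peak, upstream of klf-1 at 1.51, lies above that at 0.05.

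The peak with the highest signal at any gene of the family lay at the start of klf-2 itself. It ran from 20685473 to 20685768 on chromosome V, with its summit 62 bp upstream of the annotated start, a signal value of 64.2, rank 2272 in the list and a −log10 global IDR of 1.28. In the ranked list of replicate 2 the summit lay 13 bp away with a signal value of 37.0 and rank 1603. In replicate 1 the nearest summit was 127 bp away, 65 bp inside the gene, with 26.2 and rank 12225. The replicates thus marked the same start with summits on either side of it, and agreed within 200 bp but not within the 100 bp used here as the limit. The summit also lay inside F53F8.9, a non-coding RNA gene on the opposite strand from 20685581 to 20685651, so the peak cannot be assigned to one of the pair.

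The next peak of klf-2 lay farther upstream and was found in both replicates. Its summit was 1102 bp upstream of the start, with a signal value of 49.7, rank 7884 and a −log10 global IDR of 0.77. Replicate 1 had 25.5 there (rank 13322, 4 bp away) and replicate 2 had 21.5 (rank 16161, 13 bp away). It was the only 1 of the 10 ranked peaks of klf-2 with a summit in both replicates. Both this peak and that at the start hold CACCC near the summit, as the runs above show.

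The other 8 peaks of klf-2 were lower, with signal values from 13.0 to 35.8. The highest of them lay in an intron, 2807 bp inside the gene, and was found in replicate 1 (24.2) but not replicate 2. Another was 83 bp past the second annotated start, which lies 1223 bp inside the gene, with a signal value of 24.7 and a summit in replicate 1 (13.9). Of the 10 peaks, 3 lay in a promoter, from 1000 bp upstream to 500 bp downstream of a transcript start of the gene, 3 farther upstream, 2 in introns and 2 in exons. The nearest called peak lay outside the window, 5336 bp beyond the 3′ end, on a tRNA gene inside F53F8.7 and the ncRNA gene F53F8.10. It had a signal value of 126, with 67.4 in replicate 1 and 57.5 in replicate 2.

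klf-1 had the peak with the lowest global IDR of the family. It ran from 2871917 to 2872212 on chromosome III, 2753 bp upstream of the start, with a signal value of 63.1, rank 2445 and a −log10 global IDR of 1.51, which is past 0.05 but not 0.01. Replicate 1 had a signal value of 29.0 there (rank 8019, 23 bp away) and replicate 2 had 35.2 (rank 1986, 1 bp away). Both replicates placed the summit within 23 bp of the site, but it stood in the top 12.7% of the list of replicate 1 and the top 3.97% of that of replicate 2. The site lies near the outer edge of the window, and with a window from 1000 bp upstream it would not be counted. The middle 101 bases are 63.4% G and C, and hold no CACCC.

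Inside klf-1, a peak 1240 bp downstream of the start, in an intron, had the second highest signal value of the gene, 57.3 (rank 3954, −log10 global IDR 0.77). It was the highest peak of the gene in replicate 1, with 32.4 and rank 4792, and had 19.2 and rank 21532 in replicate 2. So the replicates differed in which of the upper klf-1 peaks came first. A further intron peak at 4060 bp had 46.8, with 31.0 in replicate 1 and no summit of replicate 2 within 100 bp. An exon peak at 2027 bp was in both replicates at a low level (12.8 and 4.07). The other 10 of the 14 ranked peaks of klf-1 had signal values from 2.48 to 27.4, and 3 of the 14 lay in its promoter. Within 1000 bp of the start, then, the gene had only low peaks, the highest of them at 22.5, 756 bp upstream.

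At klf-3, 1 peak stood above the rest, in an intron past the last annotated start. It ran from 6620774 to 6621069 on chromosome II, 4044 bp from the first start, with a signal value of 59.8, rank 3178 and a −log10 global IDR of 1.24. Replicate 1 had 25.9 (rank 12765, 2 bp away) and replicate 2 had 36.1 (rank 1767, 44 bp away). The site stood in the top 20.3% of the list of replicate 1 and the top 3.53% of that of replicate 2. The peak at the start of klf-2, with its summits 127 and 13 bp away, stood in the top 19.4% and the top 3.20%, so replicate 2 placed both higher, while it placed the klf-2 peak at 1102 bp lower (21.1% in replicate 1 and 32.3% in replicate 2). The nearest protein-coding start to this summit is that of F54H5.3, 1264 bp away, rather than a start of klf-3.

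The other 7 ranked peaks of klf-3 ranged from 13.2 to 31.7. The gene has 3 annotated starts, and 4 of its 8 peaks lay in the promoter window of one of them. One of these 4, 268 bp past the third start, was in both replicates, with 14.9 in replicate 1 and 17.4 in replicate 2. Another, 254 bp before that start, had 27.1 and rank 6882 in replicate 2 and no summit of replicate 1 within 100 bp. A low peak 1107 bp upstream (13.2) lay inside linc-138, a lincRNA gene that runs into klf-3 on the same strand. The nearest called peak was 119 kb away, 47 bp upstream of exos-8, an exosome subunit gene.

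Among the SP genes, sptf-3 had the most peaks and the most that were found in both replicates. It had 15 ranked peaks in a window of 9836 bp on chromosome I, and 4 of them had a summit in both replicates. The one nearest to its start, 41 bp upstream, ran from 13366781 to 13367076 with a signal value of 44.8, rank 12130 and a −log10 global IDR of 0.85, the best of the gene. Replicate 1 had 24.6 there (rank 15081) and replicate 2 had 24.3 (rank 10588). A second promoter peak, 634 bp upstream, had 44.5, with 22.3 in replicate 1 and 23.0 in replicate 2. The remaining pair in both replicates lay 1814 bp upstream (35.9) and 4740 bp inside the gene, in an intron (39.7). At the promoter of sptf-3 both replicates thus had a summit close by. In the replicates' own ranked lists, however, these 2 promoter summits had a low −log10 global IDR. It was 0.156 and 0.0847 in replicate 1, and 0.0238 at both in replicate 2, the lowest value of the family there. Every gene of the family but sptf-1 had a peak at 0.0238 in replicate 2. The highest klf-3 peak, at 4044 bp, also had low values, 0.0816 in replicate 1 and 0.0532 in replicate 2. The peak at the start of klf-2 had 0.0791 in replicate 1, but 0.559 in replicate 2.

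The highest signal at sptf-3 came from replicate 1. The peak 2180 bp upstream had a signal value of 51.7 and rank 6530. It had 43.2 and rank 1225 in replicate 1, the highest rank of any peak of the family in that replicate, and no summit of replicate 2 within 100 bp. A peak 2954 bp upstream, at the edge of the window, had 39.4 and rank 1832 in replicate 1, and its nearest summit in replicate 2 was 266 bp away with 11.2. Their −log10 global IDR values were 0.37 and 0.24, lower than that of the peak at the start. Of the other 9 peaks, from 14.1 to 37.2, those in an intron at 3752 bp and in an exon at 6653 bp lay in repeated sequence: 74.3% and 44.1% of their 36-base stretches occur elsewhere in the genome. The treatment of such reads is not given in the sources used here.

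A called peak lay upstream of sptf-3, beyond the window. It ran from 13371104 to 13371399, with its summit 4364 bp upstream of the start, a signal value of 78.8 and a −log10 global IDR of 2.41. Replicate 1 had 38.3 (rank 2091, 12 bp away) and replicate 2 had 47.9 (rank 699, 38 bp away). The start of sptf-3 is the nearest protein-coding start, but the snoRNA gene Y40B1A.6 lies between, and the summit is 433 bp upstream of it. The centre of the peak holds a KLF box, CCACCC or CCGCCC. The peak was looked for after the windows had been found to hold no call, and the limit of 3000 bp leaves it out of the count of 6.

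sptf-1 had 9 ranked peaks, and none of them had a summit in both replicates. The highest lay 1714 bp upstream of the start on chromosome I, with a signal value of 43.9, rank 13181 and a −log10 global IDR of 0.56. Replicate 1 had 27.6 there (rank 9877), and the nearest summit of replicate 2 was 2167 bp away. In replicate 2 the highest peak of the gene was another, in an intron at 2183 bp, with 27.2 and rank 6776. Its series-level peak, at 2203 bp, had 35.6, and replicate 1 had no summit within 100 bp. In all, 6 of the 9 peaks were in replicate 1 alone, 1 in replicate 2 alone and 2 in neither, 5 lay in introns and 2 in the promoter. The promoter peaks were low, at 26.3 and 4.15, and both were in replicate 1 alone.

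sptf-2 had the least. A single ranked peak lay in its window of 5164 bp on chromosome II, in an intron 1762 bp from the start, with a signal value of 27.9, rank 44059 and the lowest −log10 global IDR of the list. Neither replicate had a summit within 100 bp of it. The ranked list of replicate 1 held no peak in the window, and that of replicate 2 held 4, from 7.01 to 18.2. The gene had 0.194 ranked peaks per kb, and 15.2% of protein-coding genes had fewer. Its centre, at 25.7% G and C, was poorer in these bases than the median of the 57 centres, 39.6%.

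**Figure D2:**
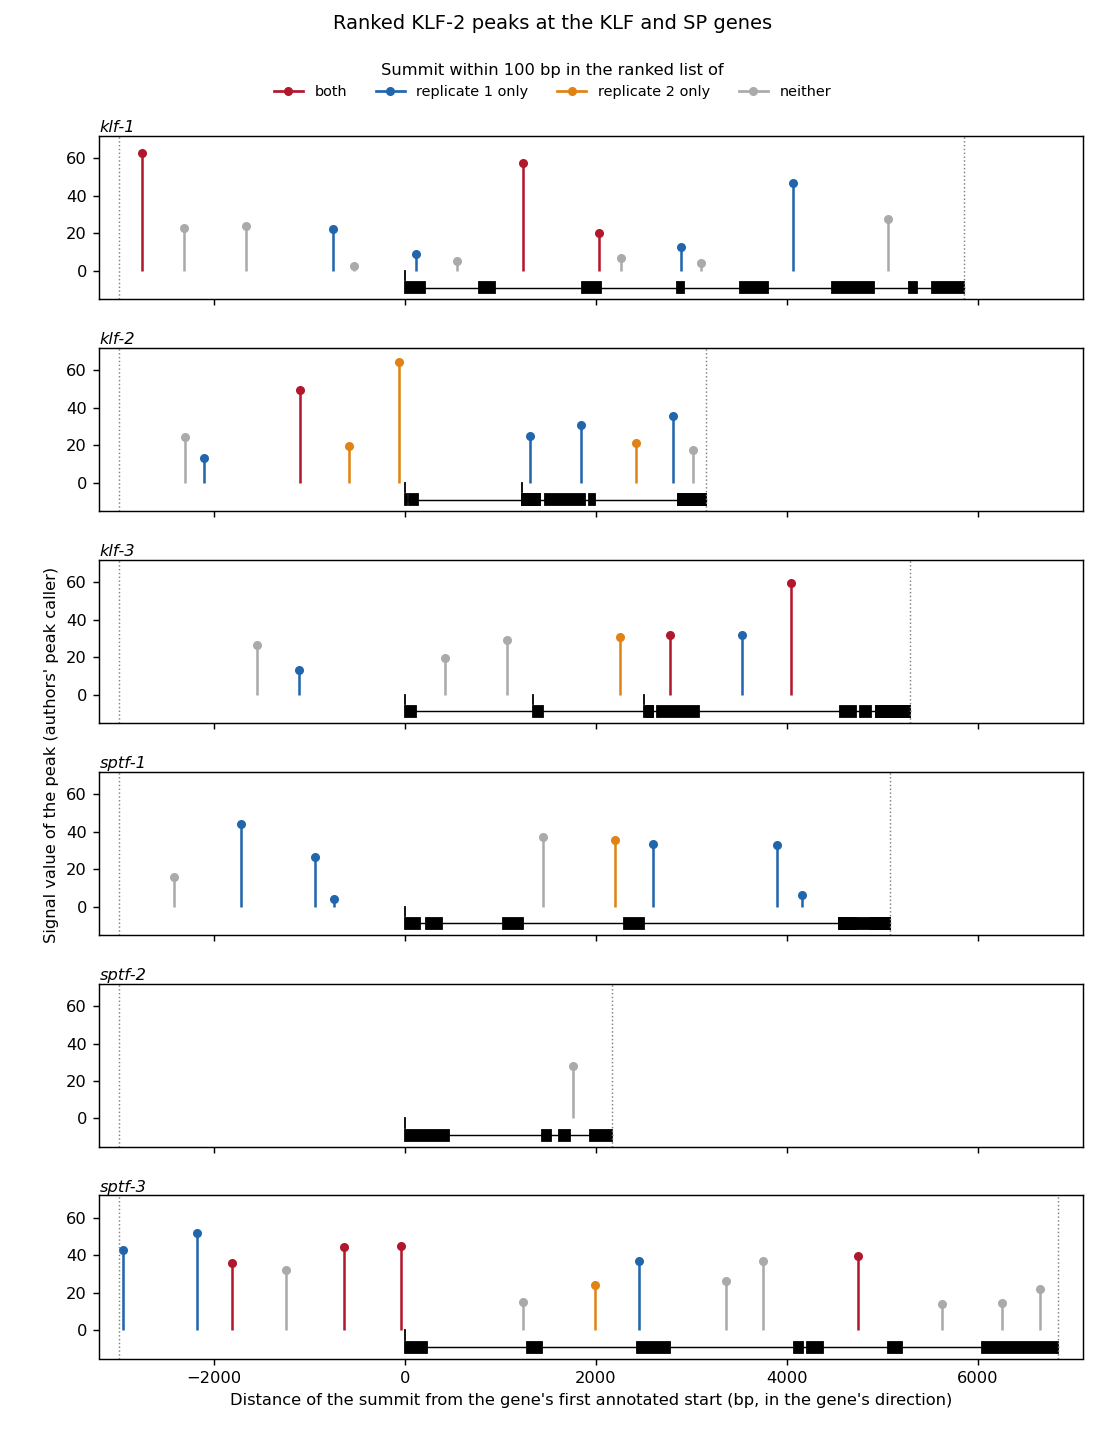
Signal value of each of the 57 ranked peaks by the distance of its summit from the first annotated start of the gene, in bp along the gene's direction, coloured by the replicates whose ranked list has a summit within 100 bp. Black boxes are exons, short ticks above them annotated starts, and dotted lines the ends of the window. The 10 peaks in both replicates include the highest of klf-1 and klf-3 and the pair nearest to the start of sptf-3, while sptf-1 and sptf-2 have none.

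By position, 14 of the 57 peaks lay in a promoter (24.6%, exact 95% interval 14.1 to 37.8%), 14 farther upstream, 22 in introns and 7 in exons. The interval covers the counting of peaks only. Over the windows of all protein-coding genes, where a peak counts for each window it lies in, 28.9% of peaks lay in a promoter, 30.6% farther upstream, 22.7% in introns and 17.8% in exons. The 57 peaks lie in only 6 genes, with 14 at klf-1 and 15 at sptf-3, so they are not independent. The interval therefore cannot be used to compare the family with all genes. Introns held 38.6% of the peaks of the family, and the length of its introns was not taken into account. Of the 10 found in both replicates, 3 were in promoters, 3 upstream, 3 in introns and 1 in an exon.

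Agreement of the replicates at the family was close to that of the ranked list as a whole. A summit of both replicates lay within 100 bp for 10 of the 57 peaks (17.5%), against 16.6% of all ranked peaks and 92.4% of called peaks. A further 19 were in replicate 1 alone (33.3%, against 25.5% of all), 6 in replicate 2 alone (10.5%, against 16.1%) and 22 in neither (38.6%, against 41.8%). The 10 had a median signal value of 44.7, and the other 47 a median of 24.3. In the replicates' own ranked lists, the −log10 global IDR at the family was at most 0.776 in replicate 1 (sptf-3) and 0.734 in replicate 2 (klf-1). Each of these values comes from the list of a single replicate and is not a measure of agreement between the 2. Over the 10, the signal values of the replicates had a Spearman's rho of 0.576, against 0.357 over the 18514 ranked peaks with a summit in both. Points of 1 gene share their surroundings and the antibody, so rho is given as a description.

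**Figure D3:**
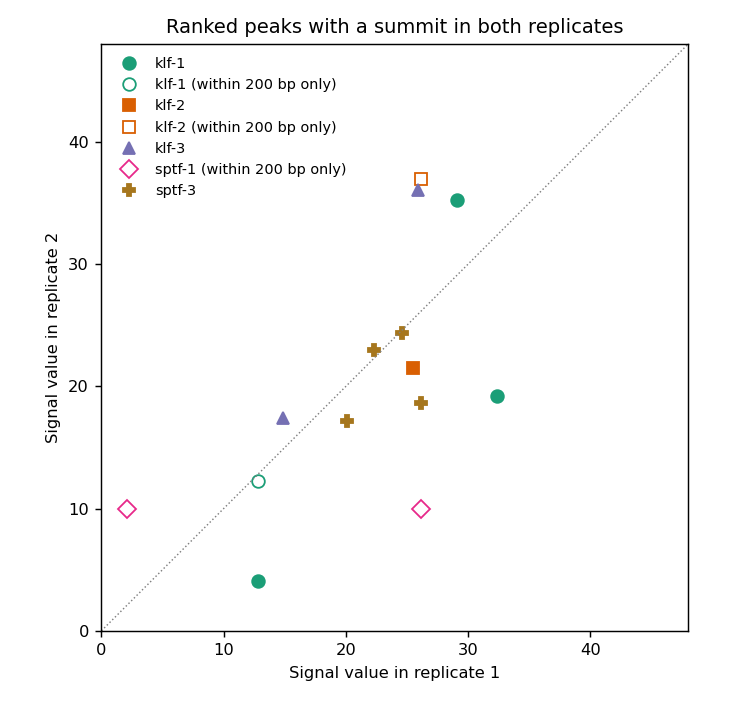
Signal values of replicate 1 and replicate 2 at the ranked peaks of the family with a summit in both, 1 point a peak, filled within 100 bp and open within 200 bp only, with a dotted line of equal values. The lists are not normalized to each other, so a point off the line does not show a difference between the replicates. The highest peaks of klf-1, klf-2 and klf-3 lie at 25.9 to 29.0 in replicate 1 and 35.2 to 37.0 in replicate 2, and the sptf-3 peaks at 20.1 to 26.2 and 17.1 to 24.3.

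The order of the 6 genes by their best peak in the list of both replicates was klf-2 (64.2), klf-1 (63.1), klf-3 (59.8), sptf-3 (51.7), sptf-1 (43.9) and sptf-2 (27.9). Set among all protein-coding genes, the best peak of klf-2 was higher than that of 88.0% of genes, that of klf-1 higher than 87.2%, klf-3 84.0%, sptf-3 71.1%, sptf-1 52.7% and sptf-2 21.0%. These percentages take no account of window length. In the other series-level ranked list, with 112690 peaks, the best peak of sptf-1 had only 37.1 and was higher than that of 35.9% of genes. The other members of the family had the same best signal values in both lists. The replicates did not share the order. In replicate 1, sptf-3 came first (43.2, above 93.3% of genes), then klf-1 (32.4, 76.9%), sptf-1 (27.6, 60.6%), klf-2 (26.2, 54.6%) and klf-3 (25.9, 53.2%), with no peak at sptf-2. In replicate 2, klf-2 came first (37.0, 91.5%), then klf-3 (36.1, 90.5%), klf-1 (35.2, 89.4%), sptf-1 (27.2, 69.8%), sptf-3 (24.3, 58.1%) and sptf-2 (18.2, 32.6%). The neighbours klf-2, klf-1 and klf-3 differ by less than the replicates do, and only the last place of sptf-2 was shared by all 3 lists.

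**Figure D4:**
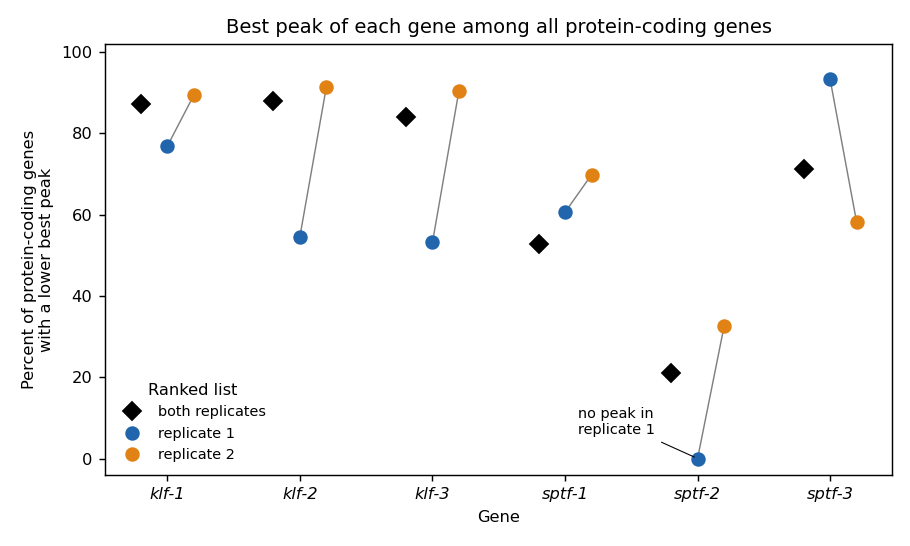
Percent of the 19973 protein-coding genes whose best ranked peak is lower than that of each of the 6 genes, in the list of both replicates and in each replicate. The values of klf-2 and klf-3 rise from 54.6 and 53.2 in replicate 1 to 91.5 and 90.5 in replicate 2, that of sptf-3 falls from 93.3 to 58.1, and sptf-2 has no peak in replicate 1.

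The genes most like klf-2 in their best peak, by the distance of log2 signal values over the 2 replicates, were T24H10.5 (26.2 in replicate 1 and 37.0 in replicate 2), the nuclear receptor gene nhr-162 (26.2 and 37.1) and C07B5.3 (26.2 and 36.8). They were chosen among 14968 genes with a peak in both replicates, by 2 values a gene.

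The sequence recognised by the family was sought within 50 bp of the summits, on both strands. The KLF box, CCACCC or CCGCCC, was in 4 of the 57 centres (7.02%), against 4.75% of all ranked peaks and 12.6% of called peaks. CCACCC was in 3, at klf-1 (1660 bp upstream), klf-2 (591 bp upstream) and sptf-1 (4159 bp inside), and CCGCCC was in 1, at sptf-3 (1814 bp upstream). The sptf-3 peak was the only one of these 4 with a summit in both replicates. GGGCGG, the GC box, is CCGCCC read on the other strand and so marks the same peak. CACCC, which is part of CCACCC, was in 9 centres (15.8%), against 8.23% of ranked and 14.2% of called peaks. These 9 were 4 of klf-1, 3 of klf-2, 1 of klf-3 and 1 of sptf-1.

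In the 1000 bp before the annotated start, whether under a peak or not, the KLF box was found at 4 of the 6 genes, klf-1, klf-2, sptf-2 and sptf-3, against 29.0% of all protein-coding genes. Of its 2 forms, CCACCC was at 3 of the 6 (15.8% of all genes) and CCGCCC, the GC box, at 1, sptf-3 (16.8%). The shorter CACCC was at 3 of the 6, klf-1, klf-2 and sptf-2, against 46.1% of all genes. sptf-2 thus holds the KLF box in its upstream sequence but has no ranked peak there. A match is a string of letters and does not show a binding site. The 57 centres had a median of 39.6% G and C, close to the 38.6% of all ranked centres and below the 49.5% of called centres.

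Other C2H2 zinc finger transcription factors were set beside the family. Of 37 listed genes, 2 had a called peak (5.41%, exact 95% interval 0.661 to 18.2%), beside the 6.25% of all genes. They were mep-1 and hbl-1. mep-1 encodes a zinc finger partner of the Mi-2 chromatin remodeller and had a called peak 134 bp upstream of the start (signal value 83.5). hbl-1, the worm hunchback gene, had one 3627 bp inside the gene (75.1). The highest peaks anywhere in the window of mep-1 had 38.5 in replicate 1 and 45.3 in replicate 2. Those of hbl-1 had 35.4 and 39.9. Whether these lie at the called sites was not checked. Neither gene had a peak in the thresholded list of a single replicate. The median C2H2 gene had a best peak above 65.5% of genes, and the median of the KLF and SP genes was 77.5%. The median window was 6897 bp for the C2H2 genes and 8186 bp for the KLF and SP genes, against 5027 bp for all genes. The percentages take no account of these lengths. egl-1 and pig-1, a kinase gene, both known targets of SPTF-3, had no called peak. The best peak of egl-1 had 46.3 in the list of both replicates, and that of pig-1 had 58.9. The highest peaks anywhere in the window of egl-1 had 26.6 in replicate 1 and 29.9 in replicate 2. Those of pig-1 had 31.4 and 33.7.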

How the data were processed

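The authors deposited, in ce11 coordinates per the labels, ranked and thresholded peak lists of each replicate and of the replicates combined. The signal value of a peak is the authors' own, as deposited, and is not normalized between lists, so it was used within a list and replicates were compared by rank as a percent of list length. The ranked lists also give the −log10 of the global IDR, as deposited. No source used here names the aligner or the peak caller, and depth is unknown. Of 1208 ranked peaks at an IDR of 0.01 or less, 176 are not in the conservative list.

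Genes came from Ensembl release 115 models of WBcel235 and sequence from the RefSeq copy of the same assembly. A summit is the deposited peak start plus the deposited offset. All 57 peaks are 296 bp wide. Counts, ranks and shares were computed with Python 3.11.15, pandas 2.3.3 and scipy 1.17.1, and the window code was tested on simulated peaks. With 1 group there was no test, and main counts stand beside the same over all genes or peaks.

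The 6 genes, the C2H2 list, the motifs, the windows and the alternatives were chosen with earlier results of these data known. The genes named are the 6, those nearest to or holding a summit, called C2H2 genes, egl-1 and pig-1, and the 3 genes nearest to the highest member in log2 signal.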

Additional observations from a re-analysis of the deposited data

How the results depend on the processing

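The count of 0 called genes was also 0 in 7 of 8 alternatives, both thresholded lists of single replicates among them, and was 1 at a global IDR of 0.05. The share of C2H2 genes called was 24.3% at that IDR, beside 14.1% of all genes. It was 0% in the thresholded list of either replicate alone, beside 2.65% of all genes in replicate 1 and 2.96% in replicate 2. Otherwise it stayed inside its interval. It was 10.8% in the other series-level thresholded list, beside 6.1% of all genes, and 5.41% in the rest, beside 4.35% to 6.52%. The number of ranked peaks in the windows was 27 without replicate 1, from a list of 50044. Without replicate 2 it was 36, from a list of 63024, beside 57 from the 111583 of both replicates. The lists differ in length, so these counts are not read as a change at the family. The promoter share was 8.77% with promoters from 500 bp upstream to 100 bp downstream. Peaks with a KLF box numbered 11 within 100 bp of the summit, where more sequence is searched, and 9 with CACCC in its place within 50 bp. No share over all peaks stands beside the 11, and none over all windows beside the 8.77%. Neither is read as a result about the family. The cause of these changes was not tested, apart from the wider or narrower definitions themselves. Peaks in both replicates numbered 9 to 14 over the alternatives. The percentile of a gene's best peak moved by more than the SD between replicates in 6 of 24 alternatives. The values of each replicate alone set that SD and are also among the 24, so the count does not measure stability. With replicate 2 left out, sptf-3 went from 71.1 to 93.3 and stayed inside its wide limit. klf-1 went from 87.2 to 76.9 and passed its narrower one. In the other series-level ranked list, with both replicates kept, sptf-1 went from 52.7 to 35.9 and passed its limit. No paired analysis was possible because there was only 1 group. Read depth is unknown and limits every statement about peaks below the threshold, and 2 replicates whose orders differ limit any ranking of the 6 genes.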
